A study of Caenorhabditis elegans with 12 samples.

Results

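The *hlh* genes of *C. elegans* are the basic helix-loop-helix (bHLH) transcription factors that carry a numbered *hlh* name. They were chosen by symbol, and all of their probe sets were kept, whether or not a signal was detected. The arrays hold 26 such probe sets for 21 genes, out of 21541 probe sets for 17675 genes. *hlh-2* has 2 probe sets, *hlh-11* and *hlh-30* have 3 each, and the other 18 genes have 1. Of the genes, 5 lie on the X chromosome (*hlh-8*, *hlh-13*, *hlh-15*, *hlh-19* and *hlh-28*). RefSeq lists 4 further symbols, *hlh-17*, *hlh-27*, *hlh-29* and *hlh-32*, for which the arrays hold no probe set under that name. They are close copies of measured genes (*hlh-27* of *hlh-25*, *hlh-29* of *hlh-28*, and *hlh-17* and *hlh-32* of *hlh-31*). The signal of *hlh-25*, *hlh-28* and *hlh-31* may therefore include that of a copy.

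bHLH proteins bind DNA as dimers, through a basic region next to a helix-loop-helix that holds the pair together. In most tissues a cell-type factor pairs with a broadly expressed E protein, which in *C. elegans* is HLH-2. Members of the family specify muscle, mesoderm, neurons and glands, while others respond to Notch signaling or control lipid use and autophagy.

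Gene expression was profiled on Affymetrix *C. elegans* Genome arrays in embryos and in dissected adult germlines, with 3 replicates per genotype. The embryos were wild-type N2 or *lin-54(n2990)*, a partial loss-of-function allele, from young adults that had grown at 25°C since the L1 stage. The germlines were wild-type N2 or *lin-54(n3423)*, a null allele, at 20°C and 24 hours after L4, and contained the distal tip through late pachytene. LIN-54 is a DNA-binding subunit of the DRM complex, which represses or activates many developmental and cell-cycle genes. The adults were synchronized, but the stages of the embryos bleached from them are not given in the sources used here. Germline RNA was amplified and labeled with another kit. Tissue therefore differed together with allele, temperature and labeling, and their parts in any difference between the tissues cannot be told apart. In such bulk samples, fewer cells of a type and less RNA per cell cannot be told apart either.

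The probe sets called present numbered 10826 to 11985 on an embryo array and 5954 to 8209 on a germline array. Mutant embryo replicate 2 had the fewest present calls of its tissue. The germline arrays numbered 1 correlated with the other arrays of their genotype at 0.928 to 0.933, while replicates 2 and 3 of a genotype correlated at 0.984 to 0.988. *lin-54* itself was detected on 3 of 3 wild-type germline arrays but on 0 of 3 from the mutant, where it was at least 4.51-fold lower. In *lin-54(n2990)* embryos, where the transcript is still made, its log2 change was 0.42 (standard error 0.11). Of 23 probe sets for germ cell genes, 14 were present on all wild-type germline arrays, against 2 of 23 for neurons and 0 of 10 for sperm. Of 46 probe sets for body-wall muscle, 11 were present on all 3, as were 8 of 15 for intestine and 5 of 18 for somatic gonad. The part of such other tissues in the germline values of the *hlh* genes was not tested.

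Detection of the *hlh* genes differed between the tissues. A detection call states, for a probe set on an array, whether its signal was present, marginal or absent. In wild-type embryos, 14 of 26 *hlh* probe sets were present on all 3 arrays, against 50.6% of all probe sets. These belong to *hlh-1*, *hlh-2*, *hlh-3*, *hlh-4*, *hlh-6*, *hlh-13*, *hlh-14*, *hlh-15*, *hlh-16*, *hlh-25* and *hlh-30*, which is 11 of 21 genes. In wild-type germlines, 4 of 26 were present on all 3 arrays, against 25.8% of all probe sets. They belong to *hlh-2*, *hlh-4* and *hlh-11*. Across both genotypes, 5 *hlh* probe sets were absent or marginal on all 6 embryo arrays (37.4% of all probe sets), namely those of *hlh-10*, *hlh-12*, *hlh-33* and *hlh-34* and 1 of 3 for *hlh-11*. On the germline arrays this held for 20 of 26 (55.6% of all probe sets). The other 6 germline probe sets were those of *hlh-2* (2), *hlh-11* (2), *hlh-3* and *hlh-4*.

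**Figure D1:**
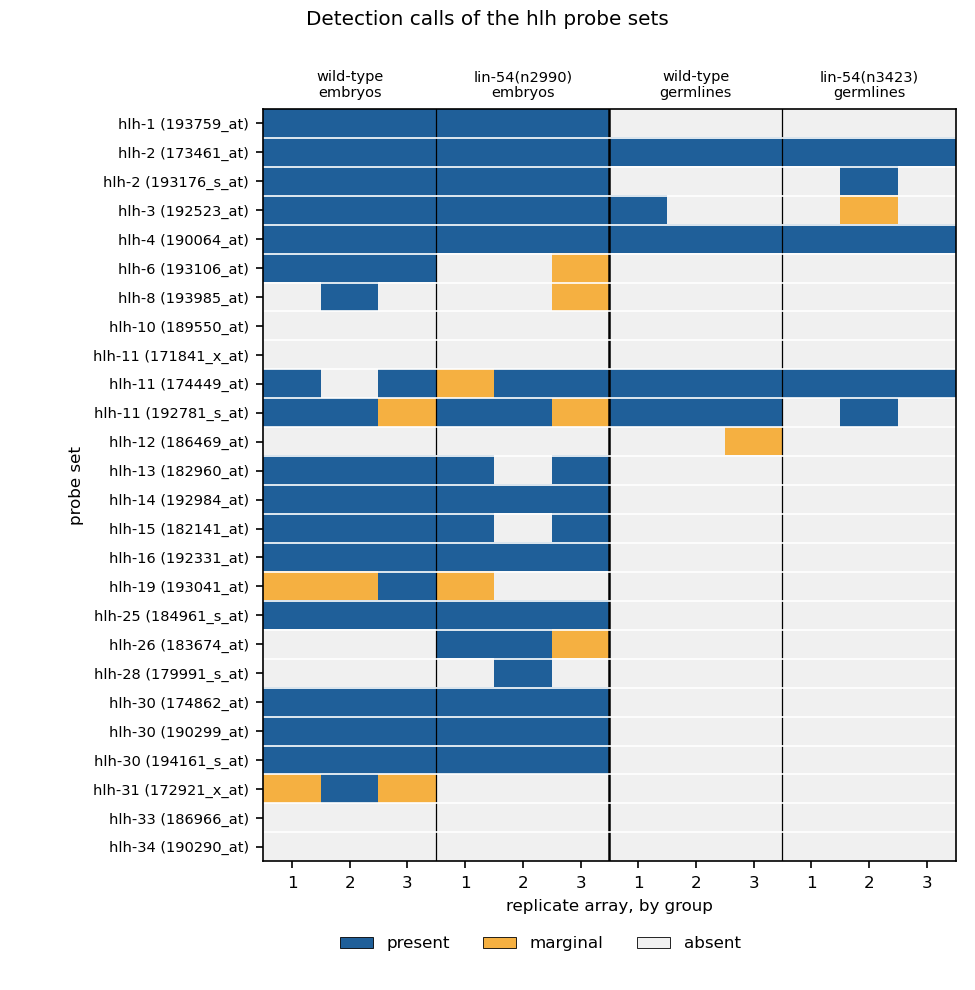
Detection call of each *hlh* probe set (rows) on each of the 12 arrays (columns, by group and replicate). Present calls fill all wild-type embryo columns for 14 probe sets and are confined in the germline columns to 6 probe sets, those of *hlh-2*, *hlh-3*, *hlh-4* and *hlh-11*.

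In *lin-54(n2990)* embryos, *hlh-25* rose 2.10-fold, and it was the only 1 of 26 *hlh* probe sets called up. The thresholds were a p-value no higher than 0.01 together with a fold change of 1.5 or more. Of all probe sets, 3.38% were called up. No *hlh* probe set was called down, against 1.53% of all. Mutant and wild-type arrays did not overlap for 3 *hlh* probe sets that were higher in the mutant (15.2% of all) and for 6 that were lower (17.6% of all). With a p-value no higher than 0.05, 3 were higher (12.5% of all) and 3 lower (12.9% of all). These shares of the *hlh* genes lie near those of all probe sets. Their log2 changes had a median of −0.05 and ranged from −0.60 to 1.07, with 12 higher (50.7% of all probe sets) and 14 lower. The median over all probe sets was 0.0038. No *hlh* probe set met an adjusted threshold of 0.05, which 57 of all probe sets (0.265%) reached.

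**Figure D2:**
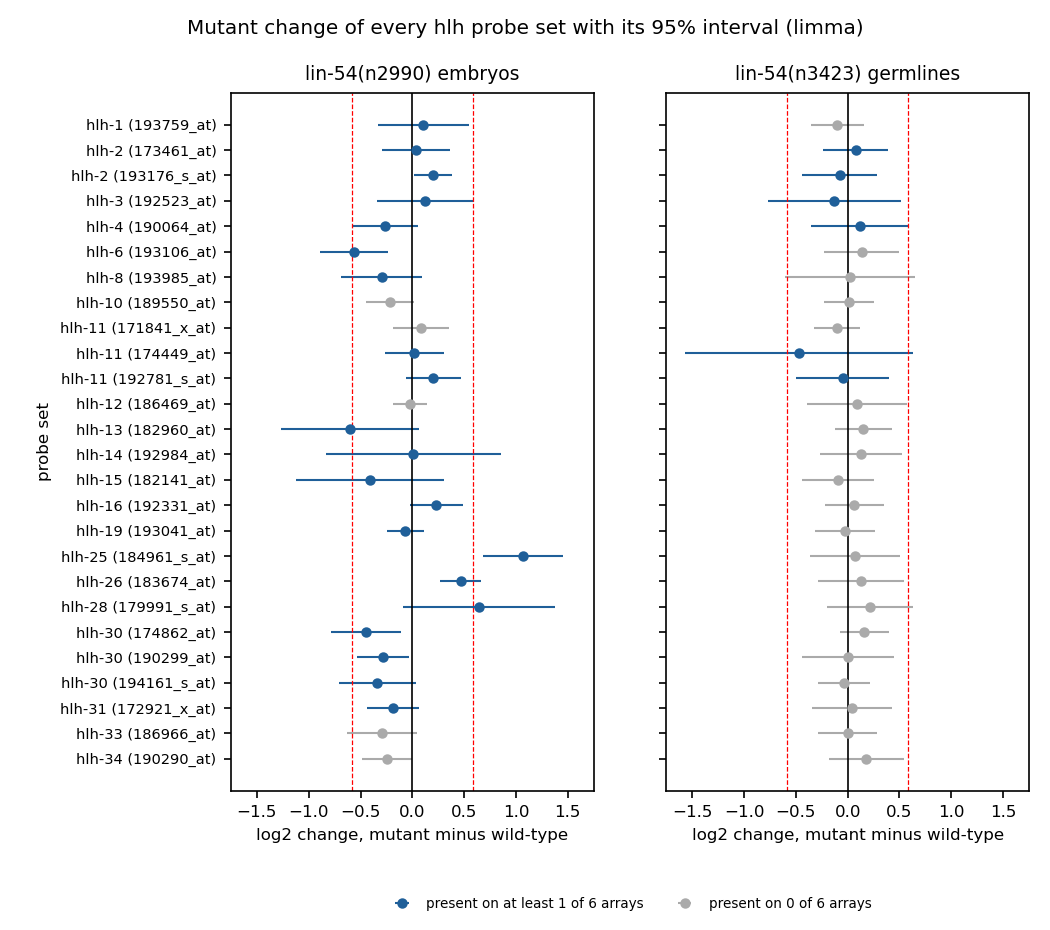
Log2 change (mutant minus wild-type, points) of each *hlh* probe set with its 95% interval from limma (lines), in embryos and germlines. Dashed lines mark a fold change of 1.5. Only *hlh-25* in embryos lies wholly beyond a dashed line, at 1.07 (0.69 to 1.45).

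Of the REF-1 family, *hlh-25* rose in *lin-54(n2990)* embryos. *hlh-26*, *hlh-28* and *ref-1* had higher means in the mutant, as did 50.7% of all probe sets, and were not called. REF-1 family proteins carry a pair of bHLH domains, and several of their genes are targets of Notch signaling in the embryo. *hlh-25* had log2 values of 8.46, 8.15 and 8.28 in wild-type and of 9.39, 9.62 and 9.10 in mutant embryos, and was present on all 6 arrays. Every mutant array lay above every wild-type array. The means were 8.30 ± 0.16 and 9.37 ± 0.26 (SD, n = 3 each), and the log2 change was 1.07 (standard error 0.16). The 95% interval of its fold change was 1.61 to 2.74 (adjusted p = 0.0716). Left out in turn, none of the 6 arrays ended the call, and the log2 change stayed between 0.94 and 1.21.

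*hlh-26*, a neighbor of *hlh-25* on chromosome II, had log2 values of 7.19, 7.29 and 7.31 in wild-type and of 7.78, 7.78 and 7.63 in mutant embryos. Again the groups did not overlap, and the spread within each was small. The probe set was absent on all 3 wild-type arrays and present on 2 mutant arrays, so that the true change may exceed the measured one. By the dim signal it was at least 1.38-fold higher in the mutant (log2 change 0.47, standard error 0.08, adjusted p = 0.0873). By the spread of the arrays, the 95% interval of this fold was 1.21 to 1.59. It passed the threshold for the p-value but not that for the fold change.

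*hlh-28* is an X-linked member of the same family. It had log2 values of 5.39, 5.53 and 5.30 in wild-type embryos, where it was absent, and of 5.91, 6.73 and 5.52 in the mutant, where only replicate 2 was called present. The lowest mutant array fell just below the highest wild-type array, so that the groups overlapped. The log2 change of 0.64 (standard error 0.30, adjusted p = 0.239) was not called, and it was 0.31 without mutant replicate 2. *ref-1*, the gene that gives the family its name, had log2 values of 9.09, 9.52 and 9.28 in wild-type and of 9.48, 9.87 and 9.46 in mutant embryos. Its groups overlapped and it was not called (log2 change 0.31, standard error 0.16, adjusted p = 0.280).

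**Figure D3:**
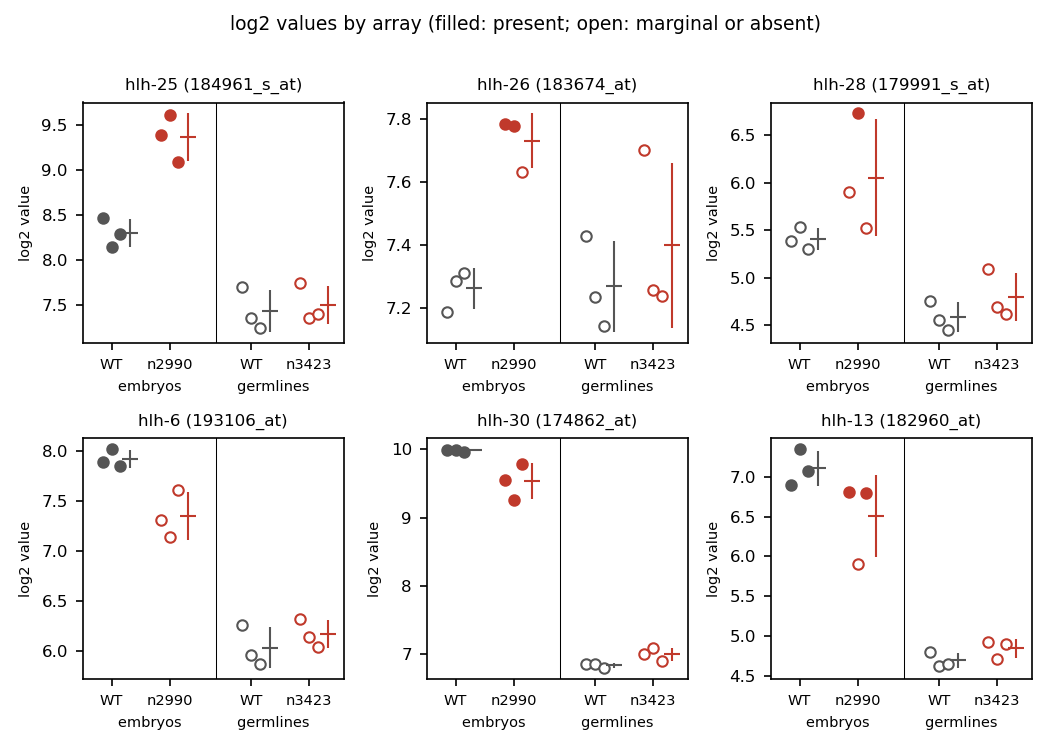
Log2 value on each array for 6 *hlh* probe sets, with wild-type in gray and *lin-54* mutants in red, embryos left and germlines right of the line. Filled points were called present, open points marginal or absent, and the bars give mean and SD of 3 arrays. The vertical axes differ and do not start at 0. Mutant *hlh-25* embryos lie between 9.10 and 9.62, above the wild-type embryos at 8.15 to 8.46.

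Of 16 probe sets for 12 genes of Notch pathway components (receptors, ligands, the CSL factor LAG-1 and the proteases that cleave the receptor), 15 had higher means in the same mutant embryos (50.7% of all probe sets did), with a median log2 change of 0.22. Only *pen-2*, a subunit of the gamma-secretase, was called (log2 change 0.72, standard error 0.19, adjusted p = 0.120), and not with the replicate number as a block (adjusted p = 0.0931). The receptor *glp-1*, which was absent on the wild-type arrays (0.59, adjusted p = 0.192), and the presenilin *hop-1* (0.59, adjusted p = 0.223) did not pass. The mean of this list was 9.11 to 9.24 on wild-type and 9.27 to 9.63 on mutant arrays.

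Lists of stage and cell type markers also shifted in these embryos. Maternal RNAs that are lost in early embryos were higher for 24 of 26 probe sets, with list means of 9.48, 10.21 and 9.65 on the wild-type and 10.57, 11.10 and 9.90 on the mutant arrays. Among them *cpg-2*, a chondroitin proteoglycan of the eggshell, was called up on both of its probe sets. Germ cell genes were higher for 22 of 23 probe sets (list means 8.10 to 8.39 and 8.49 to 9.26), with 4 called up, those of *glh-1*, *htp-1* and *syp-1*. Both of these lists hold *gld-1*. Epidermal and cuticle genes of late embryos were lower for 21 of 21 probe sets, of which 0 were called, with list means of 10.11 to 10.32 and 9.20 to 10.05. Intestine genes were lower for 12 of 15 probe sets, with 2 called down. Somatic gonad genes were lower for 12 of 18 and sperm genes higher for 9 of 10, with 0 called in either list. For these and the other embryo lists, the shares of all probe sets were 50.7% with higher means, 3.38% called up and 1.53% called down. Among the mutant arrays, replicate 2 had the highest *hlh-25* value and the highest maternal mean, and replicate 3 the lowest of both. Among the wild-type arrays, replicate 2 had the lowest *hlh-25* value and the highest maternal mean. The study reads *cpg-2* and *glh-1* as germline genes that LIN-54 represses in embryonic soma. The part of that repression, of stage or of cell composition in the list values or the *hlh-25* result was not tested.

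**Figure D4:**
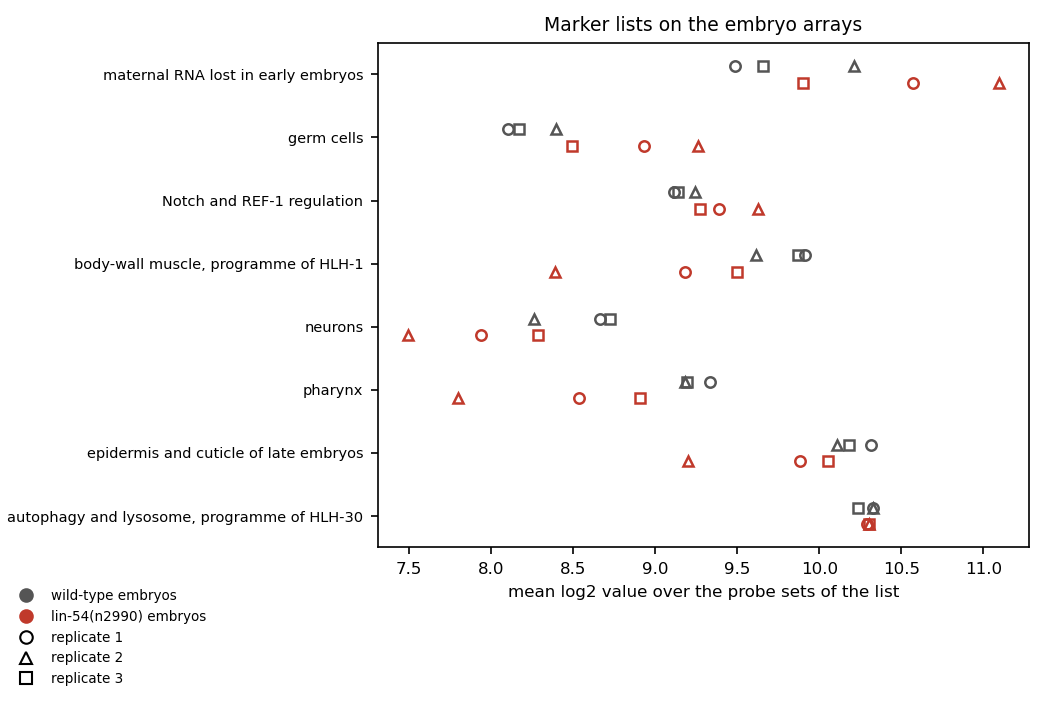
Mean log2 value over the probe sets of 8 marker lists (rows) on each embryo array, wild-type in gray and *lin-54(n2990)* in red, with a symbol for each replicate. Mutant replicate 2 has the highest maternal mean (11.10) and the lowest muscle mean (8.39), and the autophagy and lysosome means of both groups lie between 10.24 and 10.33.

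Among the muscle and mesoderm factors, *hlh-1* and *hlh-8* were not called in embryos, while *hnd-1* was called up. HLH-1 is the MyoD homolog that drives body-wall muscle fate. *hlh-1* was present on all embryo arrays, with log2 values of 7.99, 8.42 and 7.88 in wild-type and of 8.21, 8.41 and 7.98 in mutant embryos. The groups overlapped fully, and replicate 2 was highest in both genotypes. The log2 change was 0.11 (standard error 0.18, 95% interval −0.34 to 0.55, adjusted p = 0.758), so that the interval stays within a fold change of 1.5 in either direction. Muscle genes, by contrast, were lower for 44 of 46 probe sets, with a median log2 change of −0.60. Of this list 4 probe sets were called down and 1 up, that of *hnd-1*, which is also a member. The myosin chaperone gene *unc-45* fell by 0.70 on the log2 scale, and the tropomyosin gene *lev-11* by 1.45 on the probe set that was still present on 1 mutant array. Not detected on any mutant array were the other called probe set of *lev-11*, at least 1.82-fold lower, and the troponin T gene *tnt-2*, at least 2.12-fold lower. *tnt-2* was present on only 1 wild-type array. The list means did not overlap, at 9.61 to 9.91 in wild-type and 8.39 to 9.50 in the mutant.

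*hlh-8* encodes the Twist homolog of the M mesoblast lineage, which makes the sex muscles and other postembryonic mesoderm. Its log2 values were 7.63, 7.98 and 7.69 in wild-type and 7.66, 7.18 and 7.56 in mutant embryos, with a present call on wild-type replicate 2 only. The groups overlapped, and the log2 change of −0.30 (standard error 0.16, adjusted p = 0.294) was not called. All 12 probe sets for M lineage genes and HLH-8 targets were lower, with a median of −0.19 and 0 called. *hnd-1*, the Hand homolog of early mesoderm, moved the other way. It rose in mutant embryos, from 9.34, 9.48 and 9.45 to 10.26, 10.29 and 10.08, without overlap. Its log2 change was 0.78 (standard error 0.09, adjusted p = 0.0489, and 0.0546 with the replicate block), and it was the only 1 of 18 probe sets called among 16 bHLH genes with other names.

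*hlh-2*, the E protein gene, was present on all embryo arrays on both of its probe sets. On the probe set 193176_s_at its log2 values were 11.17, 11.11 and 11.02 in wild-type and 11.27, 11.32 and 11.32 in mutant embryos. The groups did not overlap, but the log2 change was only 0.20 (standard error 0.07, adjusted p = 0.176). On 173461_at the values were 9.24, 9.53 and 9.32 in wild-type and 9.17, 9.47 and 9.56 in the mutant, with a log2 change of 0.04 (standard error 0.13). There the mutant arrays spanned the wild-type range. Neither probe set reached a fold change of 1.5, and the upper ends of their 95% intervals were 0.38 and 0.36 on the log2 scale.

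The proneural genes of the Achaete-Scute type did not share a direction. *hlh-3* and *hlh-14*, which act in neuroblasts, were present on all embryo arrays, with log2 changes of 0.13 (standard error 0.19) and 0.01 (standard error 0.35). *hlh-14* had log2 values of 9.53, 10.89 and 10.24 in wild-type and of 10.05, 10.51 and 10.12 in mutant embryos. Its wild-type arrays spread more than those of any other *hlh* probe set, and replicate 2 was highest in both genotypes for both genes. *hlh-4*, a regulator of the ADL sensory neurons, had a mean log2 value that fell short of wild-type, at a difference of −0.27 (standard error 0.13, adjusted p = 0.255), from 7.96, 8.09 and 7.77 to 7.80, 7.47 and 7.76. The mutant arrays of *hlh-4* lay at or below the lowest wild-type array but for replicate 1. *hlh-19*, of the same type and barely detected, had a log2 change of −0.07.

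*hlh-6*, which is required for the pharyngeal glands, came closest to being called down. Its log2 values were 7.89, 8.01 and 7.85 in wild-type embryos, all present, and 7.30, 7.13 and 7.60 in mutant embryos, where 2 arrays were absent and 1 marginal. The groups did not overlap, and mutant replicate 3 lay nearest to wild-type. By the dim signal, the level was at least 1.48-fold lower in the mutant (log2 change −0.57, standard error 0.13, adjusted p = 0.112), just under the fold threshold. The 95% interval of the log2 change was −0.90 to −0.24. Of the 6 fits that left out an array, that without mutant replicate 3 called it (−0.70) and the other 5 did not, and it was also called when no fold change was required. Pharynx genes were lower for 8 of 8 probe sets with 0 called, and their list means were 9.18 to 9.33 in wild-type and 7.80 to 8.90 in the mutant. The part of pharyngeal tissue in the *hlh-6* value was not tested.

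None of the other factors of neurons and glia was called in embryos. *hlh-13*, related to vertebrate Ptf1a, had log2 values of 6.90, 7.35 and 7.08 in wild-type and of 6.82, 5.91 and 6.80 in mutant embryos. The groups did not overlap, but mutant replicate 2 lay far below the other arrays and was the only mutant array called absent. The log2 change of −0.60 (standard error 0.27, adjusted p = 0.229) was −0.30 without it. *hlh-15*, related to the vertebrate NHLH factors, was also lowest and absent on that array (log2 change −0.41, standard error 0.29, and −0.15 without it). The Olig-related genes *hlh-16*, which acts in the lineage of the AIY neurons, and *hlh-31*, a close copy of the glial gene *hlh-17*, had log2 changes of 0.23 and −0.18. *hlh-34*, a bHLH-PAS gene, was absent throughout, with −0.24. Neuronal genes were lower for 19 of 23 probe sets, with a median of −0.64. Of them *egl-21*, a carboxypeptidase that processes neuropeptides, fell and was not detected on any mutant array (at least 2.23-fold lower). Mutant replicate 2 had the lowest neuronal list mean (7.49), and the part of neural tissue in these values was not tested.

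Of the 5 X-linked *hlh* genes, 4 were lower in mutant embryos (*hlh-8*, *hlh-13*, *hlh-15* and *hlh-19*) and *hlh-28* was higher, as were 50.7% of all probe sets. In mutant germlines 2 of the 5 were lower (*hlh-15* and *hlh-19*), where 56.6% of all probe sets were higher. There none of the 5 was called present on any array. None of the 5 was called in either tissue.

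HLH-30, the TFEB homolog, activates autophagy and lysosome genes. All 3 of its probe sets were present on all 6 embryo arrays and had lower means in the mutant. On 174862_at the log2 values were 9.99, 9.99 and 9.97 in wild-type and 9.55, 9.26 and 9.79 in mutant embryos. The wild-type arrays were nearly equal, and all mutant arrays lay below them. The log2 change was −0.45 (standard error 0.14, adjusted p = 0.140), and it did not pass either threshold.

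On 190299_at the *hlh-30* values were 9.18, 9.16 and 9.25 in wild-type and 9.10, 8.81 and 8.83 in the mutant, without overlap (log2 change −0.28, standard error 0.10, adjusted p = 0.170). On 194161_s_at they were 9.53, 9.45 and 9.18 in wild-type and 8.82, 9.06 and 9.27 in the mutant. There the groups overlapped, since mutant replicate 3 lay above wild-type replicate 3 (log2 change −0.34, standard error 0.15, adjusted p = 0.225). Of 17 listed autophagy and lysosome genes, 11 were matched on the arrays. Of their 16 probe sets 0 were called, 10 were higher and 6 lower. The median log2 change was 0.12, with a range of −0.67 to 0.25. Any link between the *hlh-30* level and these genes was not tested.

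*hlh-11*, the homolog of the vertebrate factor AP4, was not called in embryos on any of its 3 probe sets (log2 changes of 0.02, 0.09 and 0.20). *hlh-10* (−0.22), *hlh-12* (−0.02) and *hlh-33* (−0.29) were not called present on any embryo array. HLH-12 acts with HLH-2 in the migrating cells that lead the gonad arms. The *hlh-10* groups did not overlap, at 6.15 to 6.34 in wild-type and 5.90 to 6.13 in the mutant, and those of *hlh-34* did not either, at 6.44 to 6.66 and 6.19 to 6.43. For these absent probe sets the values may lie at background.

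In *lin-54(n3423)* germlines no *hlh* gene changed detectably. By limma 0 of 26 probe sets were called up (0.0696% of all probe sets) or down (0.371% of all). Without both arrays numbered 1, 174 of all probe sets were called up and 254 down, and again 0 for *hlh* genes. With an unadjusted p-value no higher than 0.05, 0 were higher (0.831% of all) and 0 lower (1.67% of all). Log2 changes ranged from −0.47 to 0.21 with standard errors of 0.09 to 0.44, and 16 were higher (56.6% of all probe sets) and 10 lower. The median was 0.03, and that of all probe sets was 0.02. The groups did not overlap for 1 probe set that was higher (*hlh-30* on 174862_at, 4.02% of all) and 1 that was lower (*hlh-11* on 171841_x_at, 3.15% of all). Both were absent on all 6 germline arrays.

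*hlh-11* was detected in wild-type germlines on 2 of its 3 probe sets. On 174449_at it was present on all 6 germline arrays, with log2 values of 9.84, 8.66 and 8.81 in wild-type and of 8.69, 9.23 and 7.97 in the mutant. Both groups spread widely and overlapped, with wild-type replicate 1 highest and mutant replicate 3 lowest. The log2 change was −0.47 (standard error 0.44), with a 95% interval of −1.57 to 0.63, which holds changes beyond 1.5-fold in either direction. Leaving out wild-type replicate 1 gave −0.10, and leaving out mutant replicate 3 gave −0.14. On 192781_s_at, present on all 3 wild-type arrays but on only 1 mutant array, the values were 7.05, 6.78 and 6.54 in wild-type and 6.97, 6.71 and 6.54 in the mutant. These groups were almost identical, and replicate 1 was highest in both (log2 change −0.05, standard error 0.18).

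*hlh-2* was present on all 6 germline arrays on 173461_at, with log2 values of 5.41, 5.59 and 5.37 in wild-type and of 5.71, 5.44 and 5.45 in the mutant. The groups overlapped, and the 95% interval of the log2 change (0.08) was −0.23 to 0.39. Its other probe set, 193176_s_at, was present only on mutant replicate 2, at 6.11. Its values were 5.83, 6.27 and 6.12 in wild-type and 5.89, 6.11 and 5.98 in mutant germlines, so that the present array lay within the wild-type range. The probe sets of *hlh-2* thus gave different detection calls for the germline, while both were present throughout in embryos.

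*hlh-4* was present on all 6 germline arrays as well, with log2 values of 6.29, 5.93 and 5.77 in wild-type and of 6.37, 5.93 and 6.04 in the mutant. Replicate 1 was highest in both genotypes, and the groups overlapped (log2 change 0.11, standard error 0.19). *hlh-3* was present on wild-type replicate 1 alone, at 8.23, against 7.29 to 7.61 on the other 5 arrays.

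*hlh-1*, *hlh-8*, *hlh-30* and the measured *hlh* genes of the REF-1 family were absent in the germline. *hlh-1* had values of 4.37, 4.25 and 4.28 in wild-type and of 4.08, 4.23 and 4.30 in mutant germlines. *hlh-8* had values of 6.69, 6.14 and 6.17 in wild-type and of 6.80, 6.14 and 6.14 in the mutant. Both were absent on every germline array, and the genotypes overlapped. *hlh-30* was absent as well on all 3 probe sets. On 174862_at its values were 6.85, 6.86 and 6.80 in wild-type and 7.0, 7.08 and 6.90 in the mutant, which lay above wild-type by a log2 change of 0.16 (standard error 0.10). On 190299_at they were 6.86, 6.55 and 6.38 in wild-type and 6.83, 6.40 and 6.57 in the mutant, and on 194161_s_at 4.97, 4.91 and 4.92 in wild-type and 4.78, 5.0 and 4.91 in the mutant. Both of these overlapped. *hlh-25* had germline values of 7.70, 7.36 and 7.24 in wild-type and of 7.75, 7.35 and 7.40 in the mutant, all absent. *hlh-26* had 7.43, 7.24 and 7.14 in wild-type and 7.70, 7.26 and 7.24 in the mutant. *hlh-28* had 4.76, 4.55 and 4.45 in wild-type and 5.09, 4.69 and 4.62 in the mutant, and both were absent on all 6 arrays too. In all 3 of these REF-1 family genes, replicate 1 was highest in both genotypes and the groups overlapped. Since the tissues were normalized separately, germline and embryo levels are given side by side and were not compared.

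The mutant effect itself was compared between the tissues, as the log2 change in embryos minus that in germlines. Of 26 *hlh* probe sets, 3 passed the thresholds (2.94% of all probe sets, either direction). For *hlh-25* the log2 changes were 1.07 in embryos and 0.07 in germlines, a difference of 1.00 (standard error 0.25, adjusted p = 0.229). With the replicate number as a block its adjusted p-value was 0.0489. That block raised the calls over all probe sets, to 1114 positive and 762 negative differences, against 410 and 224 without it. Without the block, the *hlh-25* difference was called whichever of the 12 arrays was left out. For *hlh-6* the difference was −0.70 (standard error 0.21, adjusted p = 0.282), and for *hlh-30* on 174862_at it was −0.61 (standard error 0.17, adjusted p = 0.268). The other probe sets of *hlh-30* differed by −0.28 and −0.30 and were not called. Both the *hlh-6* and the *hlh-30* call were lost in 9 of 12 fits that left out an array. They were kept without embryo mutant replicate 3, germline wild-type replicate 1 or germline mutant replicate 3. Without a block, 0 *hlh* probe sets met an adjusted threshold of 0.05, against 0.135% of all probe sets.

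Among the 16 bHLH genes with other names, *hnd-1* apart, no probe set was called in either tissue. In embryos the largest other changes were those of *mxl-1*, a Max-like dimer partner (log2 change 1.01, standard error 0.31, adjusted p = 0.140), and of *cky-1*, a bHLH-PAS gene (−0.71, standard error 0.21, adjusted p = 0.134). *mxl-1* had log2 values of 10.05, 10.75 and 10.44 in wild-type and of 11.68, 11.80 and 10.80 in mutant embryos, without overlap. The proneural gene *lin-32* (0.58) and the hypoxia factor *hif-1* (−0.46) did not pass. The median over the 18 probe sets was 0.01 in embryos and −0.05 in germlines. In germlines 4 of these 18 were present on all wild-type arrays, for *mxl-1*, *mxl-2*, *mml-1* and *ref-1*.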

How the data were processed

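Array data were obtained from 12 samples (3 wild-type and 3 *lin-54* replicates each of embryos and germlines). The authors computed the deposited log2 values by rma (affy package) in a separate run for each tissue, and gene names follow WormBase WS190. The deposited tables also hold a detection call (present, marginal or absent, a coded value other than a measurement) per array, and the authors' fold changes and p-values, which were not used. The array files below the level of the probe set were not used here.

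Probe sets of symbols of the form hlh-number were taken, and the members and marker lists were chosen with earlier results of these data known. Each tissue was fitted with limma 3.58.1 (lmFit and eBayes, R 4.3.3) over all 21541 probe sets, mutant minus wild-type. Calls needed an unadjusted p-value no higher than 0.01 together with a fold change of 1.5 or more, as in the study's methods. With these thresholds the study reports more germline genes in each direction than the 15 up and 80 down probe sets called here. The reason was not tested. Adjusted p-values are Benjamini-Hochberg over all probe sets, and all p-values in the text are limma's. The difference between tissues was a contrast over all 12 arrays. Where a called or non-overlapping difference is against a group present on 0 arrays, its fold is given as "at least", a bound set by the dim signal and not by the spread, with the dim group at the higher of its own value and the lowest present signal of each array. The fit was tested on simulated data. Tables and figures were made with Python 3.11.15, pandas 2.3.3, numpy 2.4.6 and matplotlib 3.10.9.

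After subtraction of group means, arrays with the same replicate number correlated at 0.246, 0.362 and 0.276 in embryos and at 0.834, 0.363 and 0.392 in germlines. Neither the sample titles nor the study state that equal numbers pair the samples. Arrays of different number were not compared, and deviations from a mean of 3 arrays depend on each other, so these correlations do not establish a pairing. A second version of each fit had the number as a block, as an alternative only. The replicates are biological as the study describes them, and 3 arrays per group limit the precision.

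Per-array values are printed for *hlh* probe sets that were called, that had groups without overlap and a fold change of at least 1.5, or that were present on all wild-type germline arrays, and for *hlh-1*, *hlh-2*, *hlh-8*, *hlh-30* and *hlh-25* to *hlh-28*. Those of *hlh-4* and *hlh-14* in embryos, *hlh-6*, *ref-1* and *mxl-1* were added after their values were seen. Genes of marker lists are named where called, up to 4 per list and direction, except for the intestine and somatic gonad lists. Others that are named were chosen after their values were seen. Gene order was read from RefSeq (WBcel235).

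Alternatives were the replicate block, array weights, an intensity trend with a robust prior, centring on array medians, only probe sets present on at least 1 array, other thresholds, leaving out each array and, in germlines, the arrays numbered 1 as a batch.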

Additional observations from a re-analysis of the deposited data

Results flagged for a closer look

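The mutant effect differed between the tissues for 3 *hlh* probe sets by limma's contrast of the log2 changes (embryo minus germline), with an unadjusted p-value no higher than 0.01 together with a difference of 1.5-fold or more. *hlh-25* (184961_s_at) had a difference of 1.00, with a 95% interval of 0.45 to 1.55. *hlh-6* (193106_at) had a difference of −0.70 (−1.16 to −0.24), and *hlh-30* (174862_at) one of −0.61 (−1.0 to −0.23). All 3 probe sets were absent on all 6 germline arrays, so that the germline side of each difference rests on signals that were not detected. Allele, temperature and labeling changed together with tissue, and their parts cannot be told apart.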

How the results depend on the processing

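No call on an *hlh* probe set within a tissue changed with the replicate block, array weights, the intensity trend, centred arrays or the restriction to detected probe sets, which left out 5 embryo and 20 germline *hlh* probe sets and gives no value for them. In embryos 0 *hlh* probe sets were called up when the adjusted p-value had to reach 0.05, and 2 with no fold threshold (*hlh-25* and *hlh-26*). Called down was 1 with no fold threshold (*hlh-6*) and 0 to 1 with an array left out (1 without mutant replicate 3). For the difference between tissues, 3 were called with the replicate block, 0 with the adjusted p-value, and 1 to 3 with an array left out. Only directions of probe sets that were not called reversed. Array weights gave, in embryos, *hlh-2* 173461_at (−0.15), *hlh-11* 171841_x_at (−0.056) and *hlh-11* 174449_at (−0.10), and in germlines *hlh-2* 173461_at (−0.10), *hlh-3* (0.039), *hlh-10* (−0.035), *hlh-30* 190299_at (−0.026), *hlh-30* 194161_s_at (0.032), *hlh-31* (−0.0081) and *hlh-33* (0.089). Centring gave *hlh-12* (0.076) and *hlh-19* (0.029) in embryos and *hlh-30* 190299_at (−0.0042) in germlines. Without both germline arrays numbered 1, an alternative chosen after seeing the data, the log2 changes were −0.035 for *hlh-2* 173461_at, 0.12 for *hlh-3*, −0.015 for *hlh-8*, −0.059 for *hlh-10*, 0.044 for *hlh-30* 194161_s_at and 0.092 for *hlh-33*. With an array left out, log2 changes in embryos ran over both signs for *hlh-1* (−0.0043 to 0.27), *hlh-2* 173461_at (−0.044 to 0.15), *hlh-3* (−0.040 to 0.32), *hlh-11* 171841_x_at (−0.022 to 0.16), *hlh-11* 174449_at (−0.081 to 0.082) and *hlh-14* (−0.34 to 0.35). In germlines they did so for *hlh-2* 173461_at (−0.010 to 0.15), *hlh-2* 193176_s_at (−0.20 to 0.022), *hlh-3* (−0.32 to 0.15), *hlh-4* (−0.012 to 0.26), *hlh-8* (−0.19 to 0.21), *hlh-10* (−0.048 to 0.049), *hlh-11* 192781_s_at (−0.17 to 0.081), *hlh-12* (−0.069 to 0.22), *hlh-15* (−0.17 to 0.016), *hlh-19* (−0.12 to 0.024), *hlh-25* (−0.055 to 0.20), *hlh-26* (−0.021 to 0.21), *hlh-30* 190299_at (−0.11 to 0.14), *hlh-30* 194161_s_at (−0.088 to 0.023), *hlh-31* (−0.066 to 0.15) and *hlh-33* (−0.072 to 0.055). The causes were not tested, and the estimation of array weights stopped before it reached its tolerance. Over all probe sets the embryo counts were 728 up and 330 down, and 920 and 780 with the block. Array weights gave 1654 and 1482. Leaving out wild-type replicate 1 gave 411 and 100, and leaving out wild-type replicate 3 gave 423 and 79. On the mutant side, 366 and 79 were called without replicate 1, 1458 and 1210 without replicate 3, and up calls fell to 487 without replicate 2. The germline counts were 15 and 80, 64 and 212 with the block, 87 and 231 with array weights, 76 and 266 with the arrays numbered 1 as a batch, and 174 and 254 without both of these. Leaving out 1 germline array gave 12 to 57 up and 45 to 103 down. The count up was 28 with wild-type replicate 2 omitted, 57 with mutant replicate 1 omitted and 36 with mutant replicate 3 omitted. The count down was 45 with the last omitted and 53 with wild-type replicate 3 omitted. The germline background shares therefore depend on the fit, while the *hlh* count was 0 in each. Low germline signal limits what could be detected for the 20 *hlh* probe sets that were never present there.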

Other observations

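Genes next to *hlh-25* on chromosome II, in RefSeq's order, were read after the *hlh-25* result was seen. In *lin-54(n2990)* embryos, ZK177.1, on the far side of *hlh-26*, was called up on both of its probe sets, with log2 changes of 0.76 (standard error 0.19, adjusted p = 0.117) on 1 of them and 1.01 (standard error 0.22, adjusted p = 0.105) on the other. *acdh-2*, an acyl-CoA dehydrogenase gene on the other side, was called up on 1 of its probe sets (1.26, standard error 0.28, adjusted p = 0.105), and the other stood at 0.69 (adjusted p = 0.168). C17C3.9 (0.12), C17C3.11 (−0.06) and *tbx-35* (0.06), which lie among these genes or next to them, were not called. In *lin-54(n3423)* germlines *acdh-2* was lower on the second of these probe sets, by limma's unadjusted thresholds, at −0.82 (standard error 0.12, adjusted p = 0.665), and ZK177.1 was not called.

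On the X chromosome, *hlh-28* lies next to its close copy *hlh-29*, which has no probe set under its own name. The nearest measured genes, F31A3.3 (−0.13) and F31A3.5 (−0.05 and 0.14), were not called in embryos. Neither were the measured genes further out, over the same number of places as for *hlh-25*. These were *nhr-1* (−0.51 and −0.48), *sup-10* (−0.36), *npr-24* (−0.21), *frpr-7* (0.26 and −0.10), F39B3.3 (−0.03) and *lec-9* (−1.69, standard error 0.60).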
